A study of Homo sapiens with 9 samples.

Results

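The 50 genes described here encode collagen chains, other proteins of the extracellular matrix, and the enzymes and chaperone that finish collagen. They were chosen by symbol, with earlier results of these data known, and all 50 were found among the 60675 genes of the deposited table. The counts of calls among them are therefore not an independent test of the set. Cells of SW1783, a human astrocytoma line grown with 10% fetal bovine serum, were exposed for 24 h to a 70% ethanol extract of Poria Cocos, a fungus, or of Atractylodis Rhizoma, a plant rhizome, each at 20, 100 or 500 µg/mL. Each extract and dose gave 1 library, numbered replicate 2 in the labels, and these 6 treated libraries were set against 3 vehicle libraries (DMSO, replicates 1 to 3). The sample labels give 0.1% DMSO for vehicle, the series design gives 2%, and no DMSO percentage is given for the treated libraries. Nothing in the labels says that the libraries came from separate cultures, so the p-values below may hold no spread between cultures. In the comparison of treated with vehicle libraries, the 6 treated libraries stood in as replicates although they differ in extract and dose. The spread in that test therefore also holds differences between extracts and doses, and the dose trends hold any departure from a straight line.

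Collagen chains are folded into helical trimers in the endoplasmic reticulum, where prolyl and lysyl hydroxylases modify them and the chaperone SERPINH1 holds the trimers folded. After secretion the propeptides are cut off, and lysyl oxidases crosslink the molecules into fibrils, onto which glycoproteins and small proteoglycans bind. Normal brain tissue holds little fibrillar collagen away from its vessels and coverings, whereas astrocytic tumours can lay down collagens, fibronectin and tenascin C.

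The libraries held between 40269728 and 48905600 counts, and each of the 50 genes had at least 103 counts in every library, so all 50 passed the filter on low counts. Of the astrocyte markers GFAP, AQP4, S100B, SLC1A2, SLC1A3, ALDH1L1 and GJA1, only GJA1 and SLC1A3 reached 0.5 CPM (read counts normalized for library size) in any library, so the astrocytic label rests on few markers here. All 7 mesenchymal markers were measured well, and vimentin (VIM) stood at 5985 ± 164 CPM in vehicle (SD, n = 3). Endothelial CDH5 and VWF, epithelial EPCAM, CDH1 and KRT5, and myeloid ITGAM and AIF1 stayed under 0.5 CPM in every library. The other genes of these lists were measured: epithelial KRT8 and KRT18, endothelial PECAM1, KDR and TEK, and myeloid PTPRC, CD14 and CD68 each reached 0.5 CPM in at least 1 library. The highest of them were KRT18, at 114 to 211 CPM in treated libraries and 221 to 227 CPM in vehicle libraries, and CD68, at 122 to 149 CPM in treated libraries and 163 to 172 CPM in vehicle libraries. CPM were computed from each total after TMM adjustment, which corrects for library composition.

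In vehicle the set spanned a wide range of levels per kilobase of the longest annotated transcript. TGFBI, a secreted protein that binds collagens and integrins, had the highest level at 1058 ± 3.42 CPM per kilobase (SD, n = 3). SPARC, a collagen-binding matricellular protein, followed at 667 ± 15.5 CPM per kilobase. COL1A1 at 632 ± 6.63 and FN1 (fibronectin) at 620 ± 12.3 CPM per kilobase came next, and this pair differed by no more than its replicate spread. The type VI chains COL6A1 and COL6A2 stood at 526 ± 13.7 and 406 ± 2.25 CPM per kilobase. COL3A1, a fibrillar chain of soft connective tissue, had only 5.43 ± 0.274 CPM per kilobase. ELN (elastin) and FBN2 (fibrillin 2) were lowest, at 0.762 ± 0.052 and 0.808 ± 0.102 CPM per kilobase, and their order lies within the replicate spread.

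The matrix genes took between 3.55% and 3.85% of all counts in treated libraries and between 3.86% and 3.91% in vehicle libraries, without overlap. Across the 6 treated against the 3 vehicle libraries, 17 of the 50 genes fell, beside 13.3% of all 18310 genes tested. In the other direction 4 of the 50 rose, beside 12% of all genes tested. Of the 18310 genes tested, 9819 had a mean of at least 10 CPM, and small changes are harder to call in genes of low count. No share was taken over genes of levels like those of the 50, here or for the counts below. The genes that fell were the fibrillar chains COL1A1 and COL5A1, the type IV and type VI chains COL4A1, COL4A2, COL6A1 and COL6A2, the glycoproteins THBS1, TNC and SPARC, the microfibril proteins MFAP2 and LTBP2, the proteoglycan BGN, and PLOD1, PLOD3, SERPINH1, LOX and LOXL1. Those that rose were COL16A1, COL12A1, LAMA4 and FBN1. The median change over the 50 genes was -0.06 (log2), against 0.01 over all genes tested. The split depends on the scaling: on plain library totals, without TMM factors, 12 of the 50 genes fell, beside 7.61% of all genes tested, and 11 rose, beside 21.7%, with medians of 0.01 over the 50 genes and 0.08 over all. In that fit COL5A1, COL6A2, SPARC, LTBP2 and LOX were no longer called (adjusted p between 0.053 and 0.23), and COL1A2, COL3A1, COL5A2, COL11A1, COL6A3, LUM and VCAN also rose (adjusted p between 0.008 and 0.039). It moved 11 of the 21 called changes by over 1.5 times: those of COL5A1, COL4A1, COL4A2, COL6A2, SPARC, TNC, LTBP2, SERPINH1, LOX and LOXL1 were smaller, between -0.13 and -0.07, and that of FBN1 was larger, 0.18. A call here means an adjusted p under 0.05 in edgeR's quasi-likelihood test, with Benjamini-Hochberg adjustment over all genes tested, and changes are log2 differences, treated minus vehicle, ± SE. In bulk RNA, fewer cells of a type and less RNA per cell cannot be told apart.

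For 18 of the 50 genes every treated library lay below every vehicle library, beside 13.7% of all genes tested. For 3 genes every treated library lay above vehicle, beside 12.4% of all genes tested, and the remaining 29 overlapped. Relative to mean vehicle, the median of the 50 genes was -0.05, -0.08 and -0.12 (log2) with Poria at 20, 100 and 500 µg/mL. With Atractylodis at the same doses it was -0.02, -0.05 and -0.08. Over the 9819 genes tested with a mean of at least 10 CPM, the same medians lay between -0.02 and -0.01 in all 6 treated libraries.

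**Figure D1:**
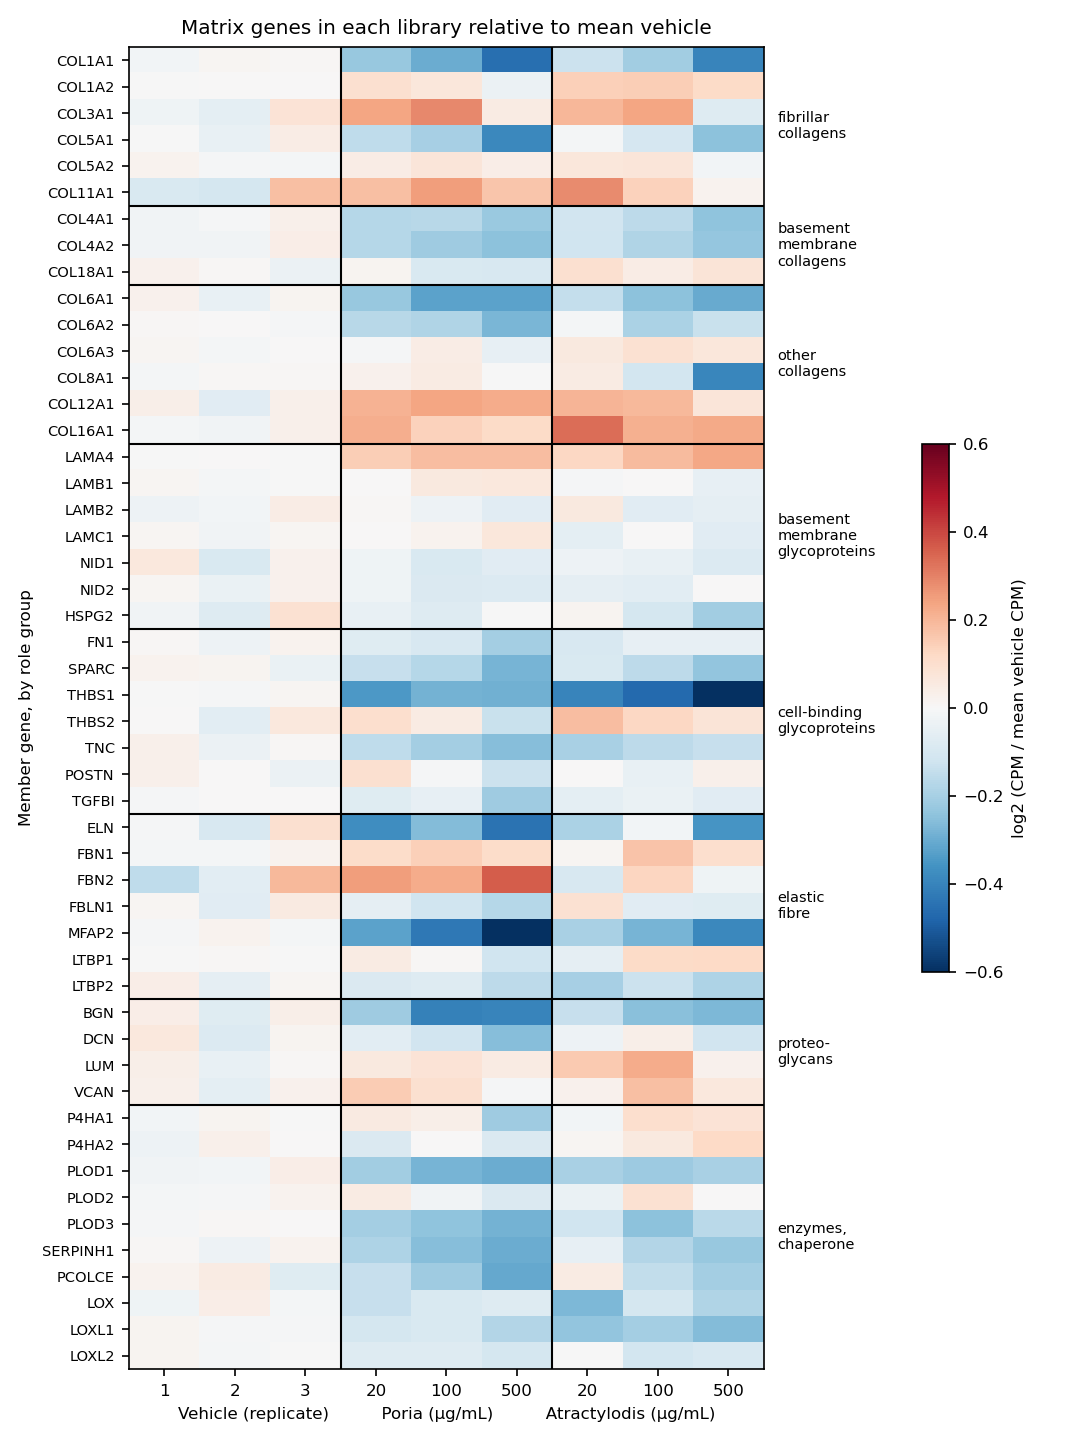
Heatmap of the log2 ratio of CPM to the mean vehicle CPM for the 50 genes (rows, by role) in the 3 vehicle and 6 treated libraries (columns), with blue for lower and red for higher. COL1A1, COL6A1, THBS1, MFAP2, BGN, PLOD1 and SERPINH1 were blue in all 6 treated libraries, and COL12A1, COL16A1 and LAMA4 were red in all 6.

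Counts per role group, from here on, are to be read beside 13.3% of all genes tested that fell and 12% that rose. On plain totals these shares were 7.61% and 21.7%. Each group holds few genes, so its count is not read as a result about the group. Among the 6 fibrillar collagen chains, 2 fell and 4 did not pass the test in either direction, or 1 fell and 4 rose on plain totals. COL1A1 (GRCh38 chr17:50183289-50201632, minus strand), the chain that forms the larger part of type I collagen, stood at 4200, 4279 and 4274 CPM in the vehicle libraries. It stood at 3635, 3455 and 3106 CPM with Poria at 20, 100 and 500 µg/mL, and at 3887, 3674 and 3233 CPM with Atractylodis at those doses. All treated libraries were below all vehicle libraries, and each extract's highest dose was its lowest value. COL1A1 fell by 17.7% over the treated libraries (log2 change -0.28 ± 0.06, adjusted p = 0.002).

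COL1A2, the partner chain of the same trimer, did not follow. Its vehicle values were 1765, 1771 and 1770 CPM, its Poria values 1893, 1852 and 1727 CPM, and its Atractylodis values 1954, 1960 and 1914 CPM, each by rising dose. Its change was 0.09 ± 0.04 (log2, adjusted p = 0.14), with 5 of 6 treated libraries above vehicle, and 0.16 on plain totals (adjusted p = 0.008). The ratio of COL1A1 to COL1A2 CPM was therefore between 1.69 and 1.99 in treated libraries and between 2.38 and 2.42 in vehicle libraries. The ratio did not overlap between the groups. No test was made of it, and no share over other gene pairs was taken for this or the ratios below.

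**Figure D2:**
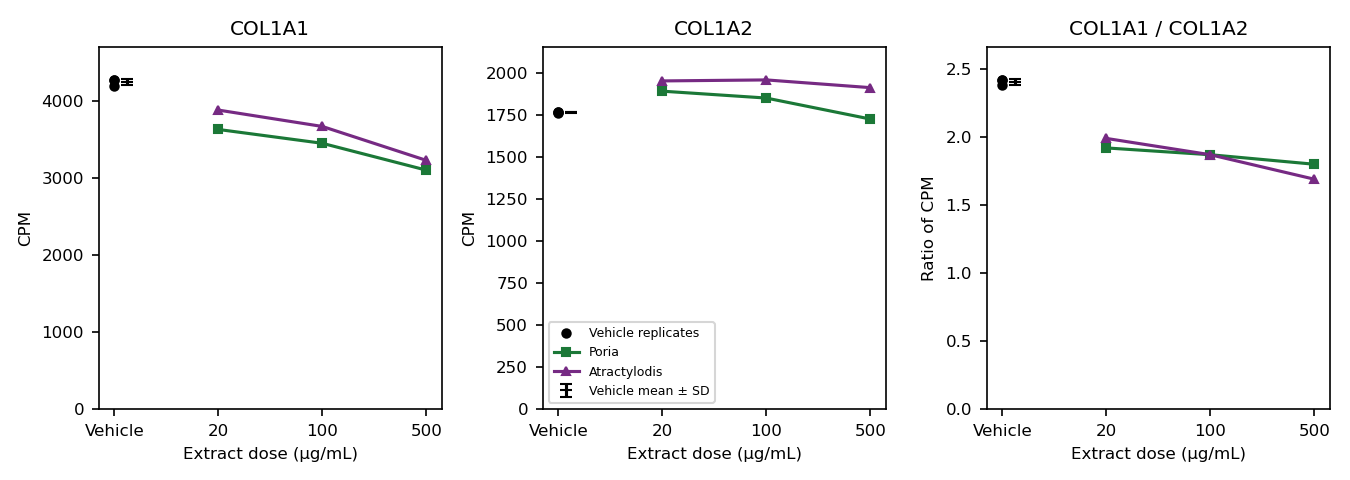
CPM of COL1A1 (left) and COL1A2 (centre) and their ratio (right) for vehicle and for each dose of both extracts (µg/mL). Points are single libraries, and the bar beside the vehicle points is their mean ± SD (n = 3). COL1A1 and the ratio lay below vehicle at every dose, with ratios of 1.69 to 1.99 in treated libraries and 2.38 to 2.42 in vehicle libraries.

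COL5A1 and COL5A2 are chains of type V collagen, which is built into type I fibrils. COL5A1 had 2383, 2311 and 2464 CPM in vehicle, 2147, 2079 and 1825 CPM with rising Poria doses, and 2366, 2222 and 2011 CPM with rising Atractylodis doses. Only the Atractylodis library at 20 µg/mL overlapped vehicle, and the change over treated libraries was -0.18 ± 0.06 (log2, adjusted p = 0.046). That call was lost without any one of 6 libraries, with adjusted p between 0.057 and 0.17: each of the vehicle replicates 1, 2 and 3, Poria at 20 or 100 µg/mL, and Atractylodis at 500 µg/mL. COL5A2 changed by 0.04 ± 0.03 (log2, adjusted p = 0.38), and the ratio of COL5A1 to COL5A2 was 5.03 to 6.39 in treated libraries and 6.56 to 7.03 in vehicle libraries. COL11A1, which nucleates fibrils, and COL3A1 were higher on average by 0.18 ± 0.07 (adjusted p = 0.066) and 0.16 ± 0.07 (adjusted p = 0.11), and neither passed the test.

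Of the 3 basement membrane collagens, 2 fell. COL4A1 and COL4A2 make the main type IV network of basement membranes and lie head to head on chromosome 13. COL4A1 ranged from 353 to 386 CPM in treated libraries and from 411 to 426 CPM in vehicle libraries, a change of -0.18 ± 0.04 (log2, adjusted p = 0.0017). COL4A2 ranged from 683 to 747 CPM in treated libraries and from 800 to 834 CPM in vehicle libraries, a change of -0.19 ± 0.04 (adjusted p = 0.0013). Neither gene overlapped between the groups, and they kept their proportion: the ratio of COL4A1 to COL4A2 was 0.511 to 0.531 in treated libraries and 0.511 to 0.52 in vehicle libraries. The annotated gene bodies overlap at their starts, and whether counting used the strand is not given in the sources used here. COL18A1, the source of endostatin, changed by 0.01 ± 0.05 (adjusted p = 0.9).

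The stretch between the RefSeq starts of COL4A1 and COL4A2 is printed because this pair moved together and shares it. It covers 126 bases of GRCh38.p14, 80.2% of them G or C, written on the strand of COL4A2, with capitals for the CCAAT and GGGCGG motifs found on either strand.
COL4A1-COL4A2 segment, chr13:110307158-110307283, plus strand: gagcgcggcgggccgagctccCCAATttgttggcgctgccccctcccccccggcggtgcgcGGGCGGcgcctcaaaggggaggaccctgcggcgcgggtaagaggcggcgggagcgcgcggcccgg
It holds 1 CCAAT, 1 GGGCGG and no TATAAA. RefSeq promoter windows, of 250 bases before and 50 after a start, were matched for 40 of the 50 genes, all but COL1A1, COL1A2, COL3A1, COL5A2, COL6A1, COL8A1, DCN, ELN, LUM and LOXL2. CCAAT or its reverse complement stood in 12 of these 40 windows, beside 34.6% of all 35116 windows. GGGCGG or its reverse complement stood in 28 of 40, beside 45.0% of all windows. It stood in 11 of the 15 windows of genes that fell (73.3%) and in 17 of the 25 windows of the other members (68.0%), which are similar shares. TATAAA or its reverse complement stood in 4 of 40, beside 11.5% of all windows.

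The 6 other collagen chains were split, with 2 that fell and 2 that rose, or 1 and 3 on plain totals. COL6A1 and COL6A2, short chains of the beaded filaments of type VI collagen, both fell. COL6A1 had 2270, 2164 and 2257 CPM in vehicle, 1903, 1787 and 1786 CPM with rising Poria doses, and 2021, 1879 and 1811 CPM with rising Atractylodis doses, without overlap. Its change was -0.26 ± 0.04 (log2, adjusted p = 0.00041). COL6A2 ranged from 1159 to 1391 CPM in treated libraries and from 1395 to 1410 CPM in vehicle libraries, and changed by -0.16 ± 0.05 (adjusted p = 0.02). That call was lost without vehicle replicate 1, 2 or 3, at adjusted p between 0.062 and 0.077. COL6A3, the long chain of type VI, changed by 0.04 ± 0.04 (adjusted p = 0.48). The ratio of COL6A1 to COL6A3 was 9.99 to 11.2 in treated libraries and 12.7 to 13.1 in vehicle libraries.

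COL12A1 and COL16A1 are collagens with interrupted helices that sit on the surface of fibrils, and both rose. COL16A1 had 44.7, 44.4 and 45.9 CPM in vehicle, 52.3, 49.5 and 48.7 CPM with rising Poria doses, and 56.8, 52.2 and 52.7 CPM with rising Atractylodis doses. Every treated library was above vehicle, and for both extracts the lowest dose was highest. COL16A1 changed by 0.21 ± 0.05 (log2, adjusted p = 0.003). COL12A1 ranged from 504 to 566 CPM in treated libraries and from 458 to 492 CPM in vehicle libraries, also without overlap, and changed by 0.19 ± 0.04 (adjusted p = 0.003).

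Of 7 basement membrane glycoproteins 1 rose, near the 12% of all genes tested that rose, and the other 6 did not pass the test. LAMA4, the laminin alpha chain of vessel and mesenchymal basement membranes, had 335, 336 and 335 CPM in vehicle, 371, 381 and 381 CPM with rising Poria doses, and 366, 382 and 394 CPM with rising Atractylodis doses. No treated library reached down to vehicle, and the change was 0.18 ± 0.04 (log2, adjusted p = 0.0012). LAMB1, LAMB2, LAMC1, the laminin-linking nidogens NID1 and NID2, and perlecan (HSPG2) changed by between -0.07 and 0.01, with overlapping groups. Among these, NID1 changed by -0.06 ± 0.04 (adjusted p = 0.29) and NID2 by -0.05 ± 0.03 (adjusted p = 0.32).

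Of the 7 cell-binding and matricellular glycoproteins 3 fell, or 2 on plain totals, and the other 4 did not pass the test. THBS1 (thrombospondin 1), which blocks angiogenesis and activates latent TGF-beta, showed the most negative change of the 50 genes. It had 2327, 2319 and 2353 CPM in vehicle, 1836, 1915 and 1912 CPM with rising Poria doses, and 1771, 1686 and 1435 CPM with rising Atractylodis doses. The groups did not overlap, the Poria libraries differed little by dose, and the Atractylodis libraries were lower at each higher dose. THBS1 fell by 24.6% over treated libraries (log2 change -0.41 ± 0.07, adjusted p = 0.0016).

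The 250 bases before the RefSeq start of THBS1 are shown because this gene had the most negative change, with capitals for the CCAAT motif and the GGGCGG motif on either strand.
THBS1 upstream, GRCh38.p14 chr15:39580829-39581078, plus strand: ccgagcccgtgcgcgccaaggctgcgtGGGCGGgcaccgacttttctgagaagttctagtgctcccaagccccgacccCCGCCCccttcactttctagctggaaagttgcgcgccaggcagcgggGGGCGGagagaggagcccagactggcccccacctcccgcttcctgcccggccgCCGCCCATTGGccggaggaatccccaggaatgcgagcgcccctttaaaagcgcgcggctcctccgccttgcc
This stretch holds 4 GGGCGG and 1 CCAAT, counted on both strands, and its last motif pair adjoins without overlap. A motif match describes letters only.

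TNC (tenascin C), an anti-adhesive glycoprotein common in astrocytic tumours, ranged from 867 to 938 CPM in treated libraries and from 1008 to 1055 CPM in vehicle libraries. It changed by -0.18 ± 0.04 (log2, adjusted p = 0.0018). SPARC ranged from 2031 to 2317 CPM in treated libraries and from 2401 to 2502 CPM in vehicle libraries, and changed by -0.18 ± 0.04 (adjusted p = 0.0066). FN1, which links cells to collagen, had 5719, 5558 and 5777 CPM in vehicle, 5405, 5311 and 4934 CPM with rising Poria doses, and 5326, 5491 and 5497 CPM with rising Atractylodis doses. All treated values of FN1 were below vehicle, but the change of -0.09 ± 0.04 did not pass the test (adjusted p = 0.13). TGFBI changed by -0.08 ± 0.04 (adjusted p = 0.2), also with all treated libraries below vehicle. THBS2 and POSTN (periostin) changed by 0.07 ± 0.06 and -0.01 ± 0.04 and overlapped.

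Among 7 proteins of elastic fibres and microfibrils, 2 fell and 1 rose, or 1 and 1 on plain totals. MFAP2 (GRCh38 chr1:16974502-16980835, minus strand), a small glycoprotein attached to fibrillin microfibrils, had 39.0, 39.7 and 38.8 CPM in vehicle, 31.4, 29.1 and 24.7 CPM with rising Poria doses, and 34.2, 32.3 and 30.0 CPM with rising Atractylodis doses. The values were lower at each higher dose of both extracts, and the change was -0.37 ± 0.08 (log2, adjusted p = 0.0029). FBN1 (fibrillin 1), the backbone of those microfibrils, ranged from 702 to 784 CPM in treated libraries and from 692 to 708 CPM in vehicle libraries. Its change of 0.11 ± 0.04 passed at an adjusted p that rounds to 0.05, and the call was lost without any one of 7 libraries, at up to 0.19: vehicle replicate 1, 2 or 3, Poria at 20 or 100 µg/mL, and Atractylodis at 100 or 500 µg/mL. LTBP2, a fibrillin-like protein, changed by -0.14 ± 0.04 (adjusted p = 0.023), a call lost without vehicle replicate 1 (adjusted p = 0.13) or 3 (adjusted p = 0.088). ELN changed by -0.27 ± 0.11 (adjusted p = 0.084) at about 3 CPM. FBN2, FBLN1 and LTBP1 changed by 0.15 ± 0.1, -0.06 ± 0.05 and 0.02 ± 0.05.

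Of 4 fibril-bound proteoglycans, BGN (biglycan) fell and the others did not pass, except that LUM and VCAN rose on plain totals. BGN had 67.5, 62.5 and 67.3 CPM in vehicle, 56.8, 49.6 and 49.9 CPM with rising Poria doses, and 59.8, 55.2 and 54.5 CPM with rising Atractylodis doses. Its groups did not overlap, and its change was -0.28 ± 0.05 (log2, adjusted p = 0.0013). LUM (lumican) changed by 0.10 ± 0.05 (adjusted p = 0.15), VCAN (versican) by 0.09 ± 0.04 (adjusted p = 0.17) and DCN (decorin) by -0.09 ± 0.06 (adjusted p = 0.31).

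The 10 collagen enzymes and chaperone genes held 5 that fell, or 4 on plain totals, and 5 that did not pass the test. PLOD1 and PLOD3, lysyl hydroxylases that prepare collagen for crosslinks and sugar chains, changed by -0.23 ± 0.04 (adjusted p = 0.00026) and -0.21 ± 0.04 (adjusted p = 0.00077). PLOD1 had 602, 604 and 629 CPM in vehicle, 530, 504 and 497 CPM with rising Poria doses, and 534, 526 and 535 CPM with rising Atractylodis doses. No treated library overlapped vehicle. PLOD2, the lysyl hydroxylase of collagen telopeptides, changed by -0.00 ± 0.04 (adjusted p = 0.99), and the ratio of PLOD1 to PLOD2 was 1.42 to 1.58 in treated libraries and 1.74 to 1.78 in vehicle libraries.

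SERPINH1 had 543, 530 and 549 CPM in vehicle, 475, 453 and 440 CPM with rising Poria doses, and 522, 479 and 462 CPM with rising Atractylodis doses. It was lower at each higher dose of both extracts and changed by -0.20 ± 0.05 (log2, adjusted p = 0.0042). LOXL1 and LOX, which crosslink elastin and collagen, ranged from 206 to 231 and from 175 to 200 CPM in treated libraries, against 245 to 249 and 207 to 217 CPM in vehicle libraries. Their changes were -0.18 ± 0.04 (adjusted p = 0.0034) and -0.14 ± 0.04 (adjusted p = 0.017), and the LOX call was lost without vehicle replicate 2 (adjusted p = 0.091). PCOLCE, which speeds the removal of procollagen C-propeptides, changed by -0.16 ± 0.06 (adjusted p = 0.075). LOXL2 changed by -0.08 ± 0.04 (adjusted p = 0.14). P4HA1 and P4HA2, catalytic subunits of collagen prolyl hydroxylase, both changed by 0.01 and did not pass.

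Dose trends were fitted as a slope per dose step, with vehicle, 20, 100 and 500 µg/mL taken as equally spaced, over all 9 libraries. With Poria 19 of the 50 genes fell, beside 11.7% of all genes tested, and 2 rose, beside 9.19%. With Atractylodis 16 fell, beside 10.6%, and 1 rose, beside 8.54%. The median slope was -0.04 for Poria and -0.03 for Atractylodis, and 0.00 over all genes tested for both. Both fits share the vehicle libraries, so their lists are not independent. BGN, COL1A1, COL4A1, COL4A2, COL5A1, COL6A1, MFAP2, PCOLCE, PLOD1, PLOD3, SERPINH1, SPARC and THBS1 fell in both, and LAMA4 rose in both. Because vehicle is the first point of each slope, a call can rest on the step from vehicle to treated libraries alone. THBS1 with Poria, at 1836, 1915 and 1912 CPM by rising dose, did not fall from 20 to 500 µg/mL. Nor did PLOD1 with Atractylodis, at 534, 526 and 535 CPM.

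The steepest Poria slopes were those of MFAP2, -0.22 ± 0.02 (adjusted p = 8.8e-06), COL1A1, -0.15 ± 0.02 (adjusted p = 7.3e-05), and BGN, -0.15 ± 0.02 (adjusted p = 0.00022). For Atractylodis they were those of THBS1, -0.22 ± 0.03 (adjusted p = 0.00039), MFAP2, -0.13 ± 0.02 (adjusted p = 0.00089), and COL1A1, -0.12 ± 0.02 (adjusted p = 0.0006). COL6A2, DCN, FBLN1, FN1, TGFBI and TNC passed the test with Poria, and COL8A1, HSPG2 and LOXL1 passed it with Atractylodis. Of these only COL8A1 had a difference between slopes that passed a test. FBN2 rose with Poria, by 0.12 ± 0.04 per step (adjusted p = 0.026). Without the Atractylodis library at 500 µg/mL, 5 genes fell with Atractylodis in place of 16, beside 3.47% of all genes tested in that fit, and the call of LAMA4 was lost as well (adjusted p = 0.06). The Poria calls of DCN, FBLN1, FN1, TGFBI, THBS1 and FBN2 were each lost without vehicle replicate 1, at adjusted p between 0.058 and 0.11. All of these but THBS1 were lost without Poria at 500 µg/mL, at adjusted p between 0.15 and 0.57. The Atractylodis calls of HSPG2, PCOLCE, PLOD1 and PLOD3 were lost without vehicle replicate 1 or Atractylodis at 100 µg/mL, at adjusted p between 0.067 and 0.13. Leaving out vehicle replicate 2 or 3, Poria at 100 µg/mL, or Atractylodis at 100 or 500 µg/mL ended some of the same calls, and that of COL5A1 with Atractylodis (adjusted p = 0.051 without vehicle replicate 3). With the dose itself in place of dose steps, 0 of the 50 genes fell with Poria and 1 with Atractylodis, beside 0.273% and 0.142% of all genes tested. On plain totals 14 fell and 6 rose with Poria, beside 6.05% and 17.3%, and 10 fell and 6 rose with Atractylodis, beside 5.87% and 14.7%. DCN, FBLN1, FN1, TGFBI and THBS1 were not called lower with Poria there, nor were COL5A1, HSPG2, PCOLCE, PLOD1, PLOD3 and SERPINH1 with Atractylodis.

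**Figure D3:**
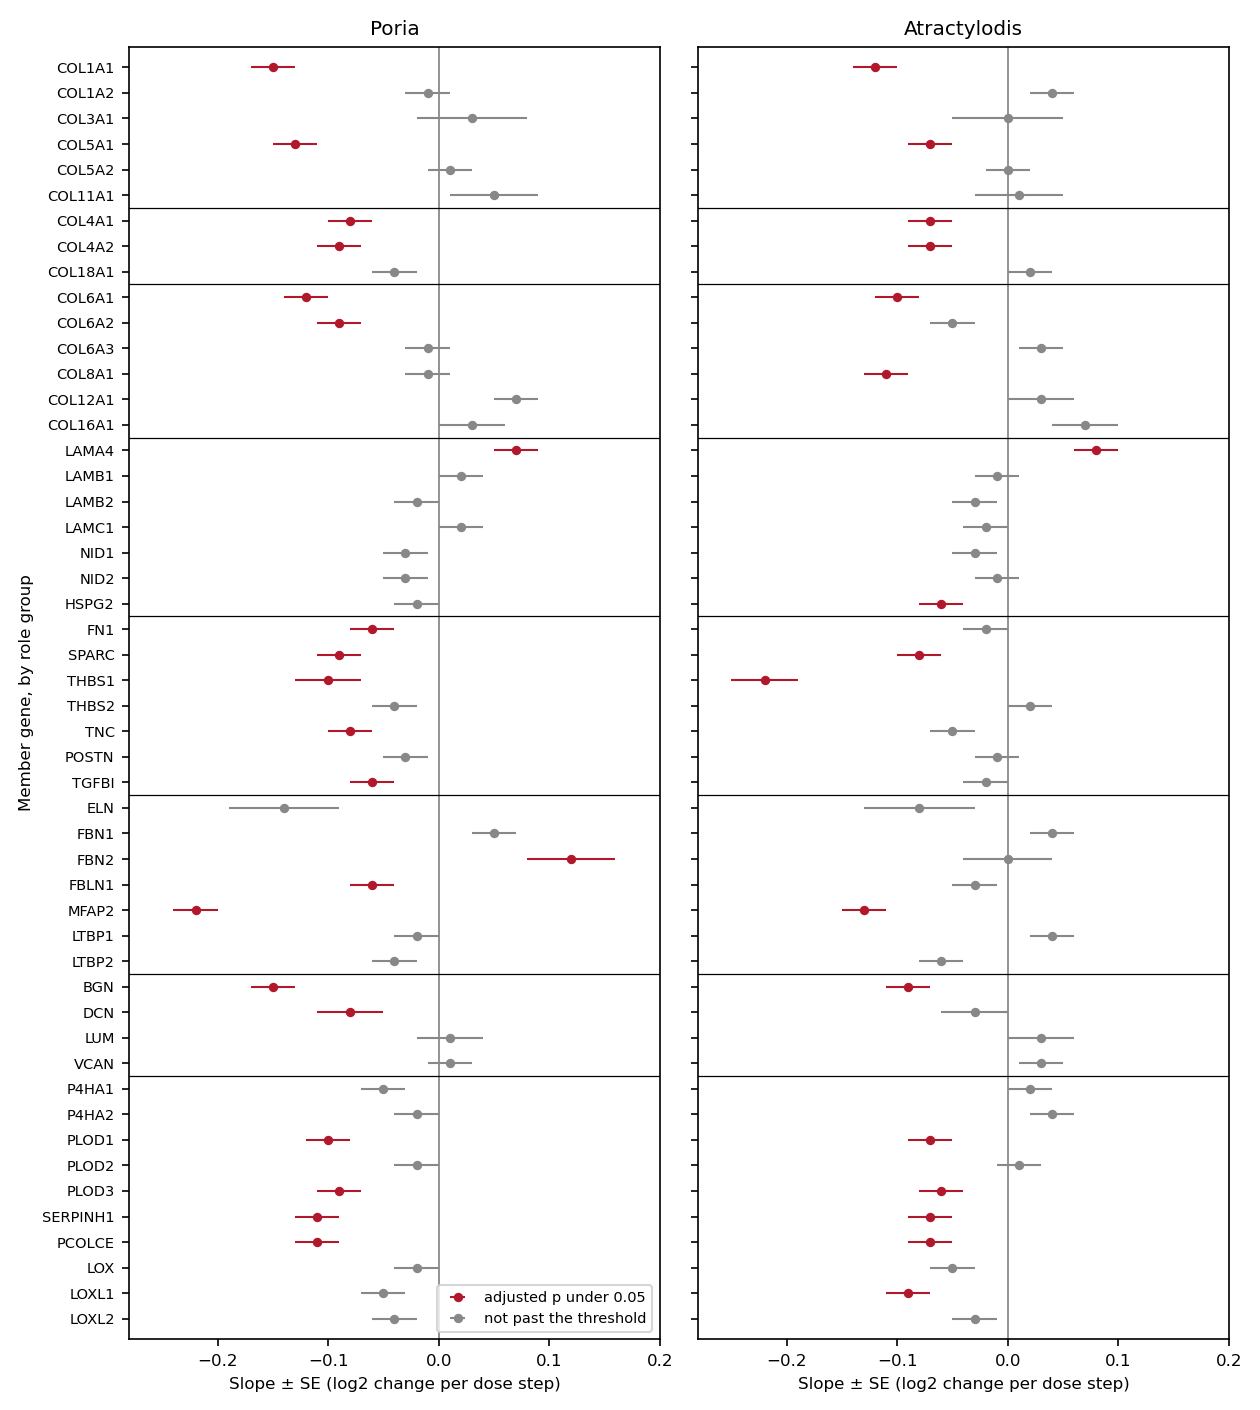
Slope ± SE (log2 change per dose step, vehicle to 500 µg/mL) of each gene with Poria (left) and Atractylodis (right), by role group, in red where the adjusted p was under 0.05. With Poria 19 slopes were called lower and 2 higher, and with Atractylodis 16 lower and 1 higher.

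Slopes were also fitted so that the treated doses alone set them. The vehicle libraries stayed in that fit and entered its estimate of spread, and so its p-values. With Poria 6 genes fell from 20 to 500 µg/mL, beside 1.25% of all genes tested: MFAP2, COL1A1, P4HA1, COL5A1, THBS2 and POSTN. With Atractylodis 5 fell, beside 2.54%: COL8A1, THBS1, COL1A1, PCOLCE and COL5A1. P4HA1 had 232, 237 and 234 CPM in vehicle, 243, 240 and 202 CPM with rising Poria doses, and 232, 251 and 248 CPM with rising Atractylodis doses. The highest Poria dose gave the lowest value, and the slope within Poria was -0.13 ± 0.03 (adjusted p = 0.018). THBS2 and POSTN had Poria slopes of -0.12 ± 0.03 (adjusted p = 0.038) and -0.11 ± 0.03 (adjusted p = 0.027). PCOLCE had 174, 152 and 146 CPM with rising Atractylodis doses, against 171, 174 and 160 CPM in vehicle, and its slope within Atractylodis was -0.13 ± 0.03 (adjusted p = 0.018). Without the 500 µg/mL library of the extract concerned, all 6 Poria calls and all 5 Atractylodis calls were lost (for COL1A1, adjusted p = 1 and 0.44), beside 0.0219% and 0.532% of all genes called lower in those fits. On plain totals MFAP2 and P4HA1 alone of the 6 were called within Poria, beside 0.694% of all genes tested. Without the Poria library at 20 µg/mL 5 of the 6 Poria calls were lost, beside 0.246% of all genes called lower in that fit, without vehicle replicate 1 4, and without vehicle replicate 3 2 (for COL1A1, adjusted p = 0.31, 0.07 and 0.062). Without the Atractylodis library at 20 µg/mL 3 of the 5 Atractylodis calls were lost (for COL1A1, adjusted p = 0.11), beside 0.263% of all genes called lower in that fit, and without vehicle replicate 1 that of COL5A1 (adjusted p = 0.055).

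The extracts were compared with each other through their slopes and at matched doses. COL8A1 (GRCh38 chr3:99638475-99799226, plus strand), a short-chain collagen of vessel walls and of the cornea's inner membrane, was the 1 gene of 50 whose slopes differed, beside 1.15% of all genes tested. It had 139, 141 and 141 CPM in vehicle, 143, 145 and 140 CPM with rising Poria doses, and 145, 130 and 107 CPM with rising Atractylodis doses. The Poria libraries stayed near vehicle, and the Atractylodis libraries at 100 and 500 µg/mL lay below it. The Poria slope minus the Atractylodis slope was 0.10 ± 0.02 (log2 per step, adjusted p = 0.04). That call was lost without any one of 6 libraries, with adjusted p between 0.051 and 0.7: vehicle replicate 1, 2 or 3, Poria at 100 or 500 µg/mL, and Atractylodis at 500 µg/mL. On plain totals it was lost as well (adjusted p = 0.072).

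THBS1 had a slope difference of 0.12 ± 0.03 (adjusted p = 0.084) and MFAP2 one of -0.09 ± 0.02 (adjusted p = 0.065), and neither passed. On plain totals THBS1 was the 1 gene of 50 whose slopes differed (adjusted p = 0.042), beside 0.972% of all genes tested. At matched doses none of the 50 genes was called by edgeR over all libraries with the filter on low counts, beside 0.164% of all genes tested. Without that filter it called 4 of the 50 at matched doses, and no share over all genes is given for that fit. DESeq2 called 1 of the 50 there, beside 2.45% of the 6241 genes to which it gave an adjusted p. Without the Poria library at 20 µg/mL edgeR called 4 of the 50 at matched doses, beside 2.01% of all genes tested in that fit, and 2 slope differences, beside 1.64%. Without the Atractylodis library at 20 µg/mL it also called 4 at matched doses, beside 2.01%, and 2 slope differences, beside 1.35%. THBS1 was 0.22 ± 0.05 (log2) higher with Poria than with Atractylodis (adjusted p = 0.11), and MFAP2 was 0.18 lower, a difference of -0.18 ± 0.05 (adjusted p = 0.1).

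**Figure D4:**
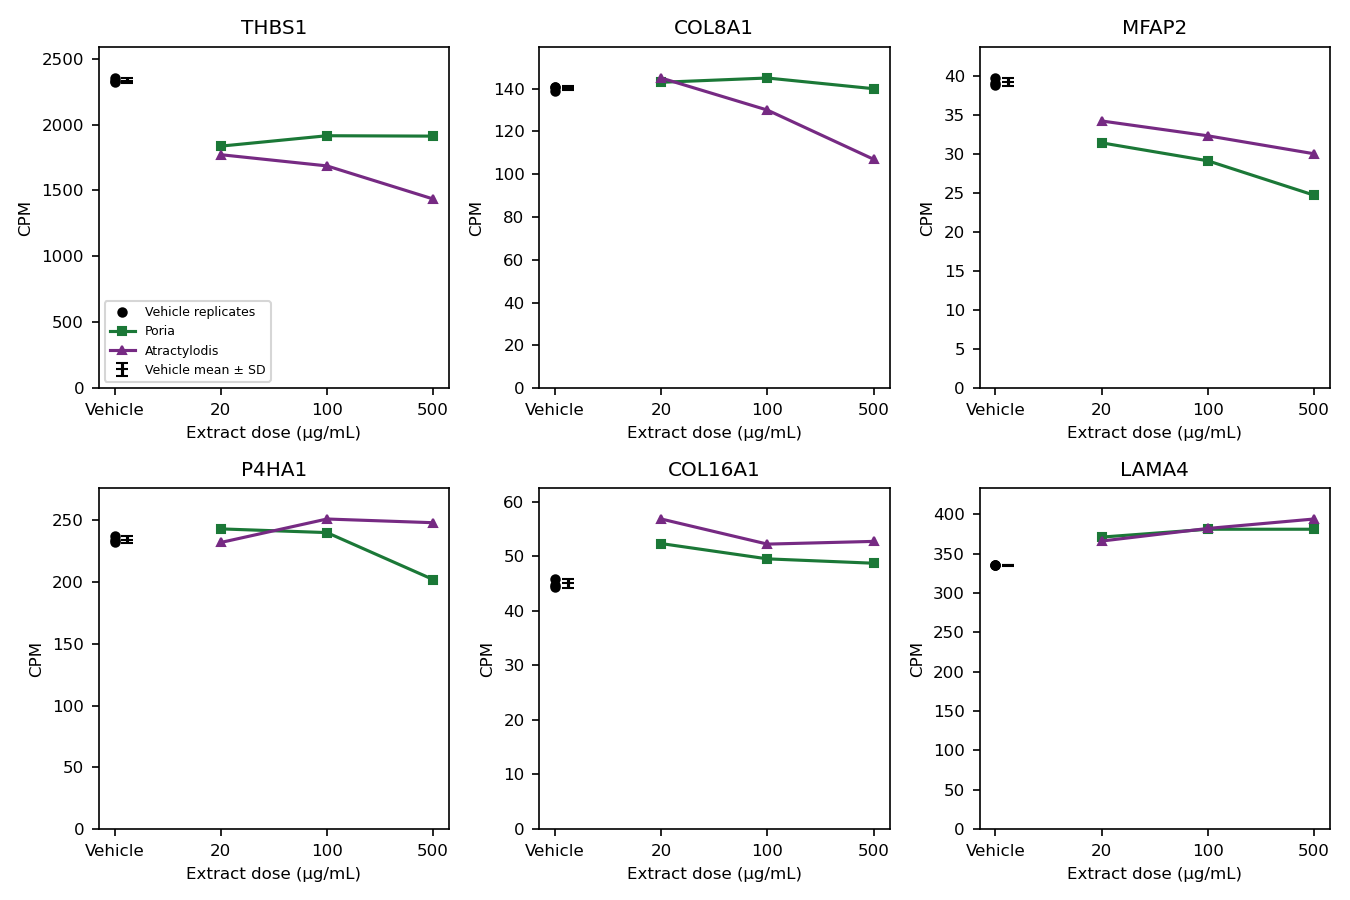
CPM by dose (µg/mL) of THBS1, COL8A1, MFAP2, P4HA1, COL16A1 and LAMA4, with squares for Poria, triangles for Atractylodis and circles for vehicle libraries, whose mean ± SD (n = 3) stands beside them. COL8A1 reached 107 CPM at the highest Atractylodis dose and 140 CPM at the highest Poria dose, and P4HA1 reached 202 CPM at the highest Poria dose.

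Other genes of the same pathways were read from lists that hold none of the 50 genes. Their median changes over treated libraries were 0.16 for further collagen chains, -0.01 for folding and export, 0.05 for propeptide removal and fibril assembly, -0.06 for other glycoproteins and proteoglycans, and -0.17 for the TGF-beta pathway, beside 0.01 over all genes tested. The counts that follow are to be read beside the 13.3% of all genes tested that fell and the 12% that rose over treated libraries. Those for propeptide removal and for other glycoproteins lie near these shares. Counts on plain totals are to be read beside the 7.61% that fell and the 21.7% that rose in that fit. Of 14 further collagen chains tested, 6 rose over treated libraries and the other 8 did not pass the test. Those that rose included COL4A5, a type IV chain of kidney and epithelial membranes, by 0.30 ± 0.04 (adjusted p = 5.3e-05), COL21A1 by 0.33 ± 0.08 (adjusted p = 0.0038), and COL14A1 by 0.27 ± 0.06 (adjusted p = 0.0042). The others were COL4A3, COL4A6 and COL7A1. Of 22 genes of collagen folding and export, 5 fell and 17 did not pass the test. On plain totals 2 of the 22 fell and 3 rose. Among the 5 were CREB3L1, a transcription factor that drives type I collagen genes in mouse bone, by -0.43 ± 0.05 (adjusted p = 6.3e-06), the prolyl 3-hydroxylase P3H1 by -0.13 ± 0.03 (adjusted p = 0.0054), and P4HB, the shared subunit of the prolyl hydroxylases, by -0.22 ± 0.05 (adjusted p = 0.0063).

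Of 14 genes of propeptide removal and fibril assembly, 1 fell and 1 rose: BMP1, the procollagen C-proteinase, by -0.20 ± 0.05 (adjusted p = 0.003), and PCOLCE2, an enhancer of it, by 0.32 ± 0.09 (adjusted p = 0.016). Of 35 other matrix glycoproteins and proteoglycans, 7 fell and 3 rose, or 3 and 4 on plain totals, with the heparan sulphate proteoglycans SDC4 and SDC1 at -0.30 ± 0.04 (adjusted p = 7.8e-05) and -0.22 ± 0.05 (adjusted p = 0.0016). ECM1 changed by -0.28 ± 0.05 (adjusted p = 0.00039). Of 17 TGF-beta ligands, receptors and Smads, 8 fell and 2 rose, or 6 and 4 on plain totals. The plain-totals fit called 7.61% of all genes tested lower and 21.7% higher. TGFB1, the ligand best known for inducing collagen genes, changed by -0.27 ± 0.04 (adjusted p = 5.0e-05), and PMEPA1 and SKI, which restrain the pathway, by -0.37 ± 0.05 (adjusted p = 3.0e-05) and -0.23 ± 0.04 (adjusted p = 0.00034).

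GC content moved with these changes. The 17 genes that fell had a median GC content of 59.9% over the longest transcript, the 4 that rose 46.7%, and the 29 others 49.5%. Spearman's rho between GC content and the change over treated libraries was -0.45 across the 50 genes and -0.30 across 18169 genes tested, values that share the same 9 libraries. With offsets for GC content and transcript length, rho across the 50 genes was -0.06. In that fit 16 of the 50 fell and 3 rose, beside 11.8% and 9.73% of all genes tested, and 13 of the 17 were among the 16. LTBP2, LOXL1, COL5A1 and COL6A2 were lost and DCN, FN1 and PLOD2 gained, and of the 4 that rose FBN1 was lost. COL1A1 changed by -0.21 with the offsets and COL1A2 by 0.02, THBS1 by -0.45, MFAP2 by -0.28 and COL16A1 by 0.29. Each ratio given above that did not overlap set a gene of higher GC content over one of lower. GC content was 61.1% for COL1A1 and 41.7% for COL1A2, and 60.3% for COL5A1 and 47.9% for COL5A2. It was 63.5% for COL6A1 and 53.2% for COL6A3, and 58.6% for PLOD1 and 34.4% for PLOD2. The part of GC content in these ratios was not tested. With the offsets 19 of the 50 genes fell with Poria, beside 8.57% of all genes tested: 16 of the 19 called without them, with FBLN1, TGFBI and COL6A2 lost and P4HA1, POSTN and PLOD2 gained. With Atractylodis 9 of the 50 fell, beside 8.37%: 8 of the 16 called without them and LOX, with PLOD1, PCOLCE, PLOD3, LOXL1, COL5A1, COL4A2, HSPG2 and BGN lost. Within Atractylodis THBS1 and COL8A1 stayed called, beside 1.45%, and PCOLCE, COL1A1 and COL5A1 did not, and the COL8A1 slope difference no longer passed (0.10, adjusted p rounding to 0.05), beside 1.46% called in either direction.

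**Figure D5:**
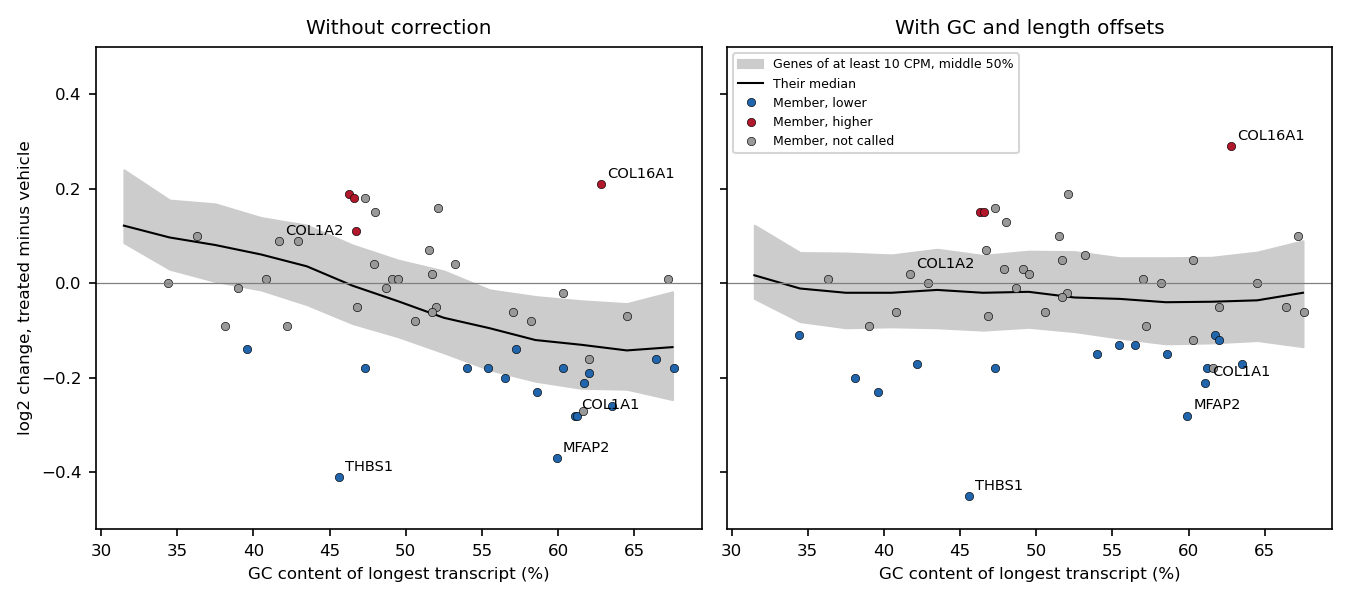
Change over treated libraries (log2, treated minus vehicle) against GC content of the longest transcript (%) for the 50 genes, without correction (left) and with offsets for GC content and length (right), in blue where lower, red where higher and grey where not past the test. The grey band and line are the middle 50% and the median of genes with a mean of at least 10 CPM, in steps of GC content, and the line slopes down on the left, where rho across the 50 genes was -0.45, and is nearly flat on the right, where it was -0.06.

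Other measures moved with treatment too. The summed level of 4 long nuclear RNAs was 2449 to 2763 CPM in treated libraries and 1773 to 1839 CPM in vehicle libraries, and MALAT1, NEAT1 and MEG3 rose while KCNQ1OT1 did not pass. The 7 mesenchymal markers summed to between 5646 and 6411 CPM in treated libraries and between 6906 and 7225 CPM in vehicle libraries, with VIM and THY1 lower, PRRX1 higher and the others not called. VIM alone made up most of that sum, as KRT18 did of the epithelial sum and CD68 of the myeloid sum that follow. The calls in this paragraph stand beside 13.3% of all genes tested that fell and 12% that rose. The 5 epithelial markers summed to 127 to 230 CPM in treated libraries and 239 to 246 CPM in vehicle libraries, and the 5 endothelial markers to 33.3 to 41.3 and 30.2 to 32.8 CPM. The 5 myeloid markers summed to 131 to 161 CPM in treated libraries and 173 to 181 CPM in vehicle libraries, and the 7 astrocyte markers to 235 to 277 and 274 to 281 CPM. The part of these measures in the matrix gene changes was not tested.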

How the data were processed

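RNA was sequenced from 9 libraries of SW1783 cells. Per the submitters' processing notes, reads were handled with FastQC 0.11.9, Trim Galore 0.6.5, STAR 2.7.3a and RSEM 1.3.3 on hg38, while the annotation release and strand setting are not given in the sources used here. RSEM expected counts per Ensembl gene, not normalized, were what the authors deposited. These were rounded to whole numbers here, and 270 columns of samples outside this series were not used. Symbols, lengths and GC content came from a GENCODE annotation of GRCh38, and promoter sequences from RefSeq.

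Library totals lay between 40269728 and 48905600 counts, and the 50 genes had from 103 counts per library upward. Tests used edgeR 4.0.16 in R 4.3.3: TMM scaling, filterByExpr over the 7 conditions (count minimum 10, total minimum 15, 18310 genes kept), robust quasi-likelihood fits and Benjamini-Hochberg adjustment at 0.05. The fits were treated against vehicle, dose trends, extracts at matched doses, and slopes within treated doses, which left 7, 6, 4 and 4 residual degrees of freedom. SEs were derived from the F statistic. The scripts were tested on simulated data, with the same relative spread for every gene. At an adjusted p under 0.05 they recovered 38% of changes of 0.2 (log2) over treated libraries, and 97% of changes of 0.4. Of Poria slopes of 0.1 and 0.2 per dose step they recovered 34.5% and 96%. A gene that did not pass a test may therefore still have changed.

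The members and lists were chosen with earlier results of these data known. Described in full were up to 3 genes per role group with the smallest p over treated against vehicle, those called between extracts or within treated doses, and COL1A1, COL1A2, FN1, SERPINH1 and LOX. The rest are named to account for every member. Of other pathway genes, up to 3 called per list are given with values. Alternatives were RLE scaling, no filter, DESeq2 1.42.0, offsets for GC content and length (natural splines, 5 degrees of freedom), the dose itself, each library left out, and plain totals, whose fit was chosen after seeing the data.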

Additional observations from a re-analysis of the deposited data

Results flagged for a closer look

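The trend of COL8A1 differed between the extracts by the test of the difference itself. The Poria slope minus the Atractylodis slope was 0.10 (log2 per dose step, adjusted p = 0.04 in edgeR's quasi-likelihood test), with 143, 145 and 140 CPM at rising Poria doses and 145, 130 and 107 CPM at rising Atractylodis doses. Without the Atractylodis library at 500 µg/mL the difference was 0.04 (adjusted p = 0.7). GC content was 46.8% for COL8A1, and with offsets for GC content and length the difference of 0.10 no longer passed the test, at an adjusted p that rounds to 0.05. It was lost without any one of 6 libraries and on plain totals (adjusted p = 0.072). The 1 gene of 50 stands beside 1.15% of all genes tested.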

How the results depend on the processing

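Over treated against vehicle, the counts of genes that fell and rose stayed within 1.5 times of 17 and 4 under every alternative fitted over all 9 libraries but plain totals. With the dose itself in place of dose steps, 0 genes fell and 0 rose with Poria, 1 fell and 0 rose with Atractylodis, and 3 were called within each extract. Offsets for GC content and length gave 1 higher gene with Poria, 9 lower and 3 higher with Atractylodis, 0 slope differences and 2 called within Atractylodis. DESeq2 gave 4 higher with Poria, 3 slope differences, 1 at matched doses and 9 within Atractylodis. Without a filter there were 2 higher with Atractylodis, 3 slope differences and 4 at matched doses. For DESeq2, a share over all genes is given only at matched doses, 2.45% of the 6241 genes with an adjusted p. None is given for the fit without a filter. The remaining counts of these fits were therefore not set against all genes and are not read as an excess. Leaving out 1 library at a time gave 14 to 20 lower and 1 to 3 higher with Poria, 5 to 20 lower and 0 to 2 higher with Atractylodis, 0 to 2 slope differences, 0 to 4 at matched doses, 14 to 19 lower and 3 to 6 higher over treated libraries, 0 to 6 within Poria and 0 to 7 within Atractylodis. The counts of all genes called, in either direction, moved too in the fits without 1 library. They ranged from 2549 to 4245 with Poria, 1035 to 4296 with Atractylodis and 2986 to 5354 over treated libraries. Slope differences ranged from 0 to 300 and calls at matched doses from 3 to 367. Calls ranged from 16 to 657 within Poria and from 102 to 1199 within Atractylodis. So the counts in this paragraph do not show that the matrix genes were less stable than other genes. The cause of these shifts was not tested. Plain totals, an alternative chosen after seeing the data, gave 12 lower and 11 higher over treated libraries, 6 higher with Poria, 10 lower and 6 higher with Atractylodis, and 2 called within Poria. They raised the median change of all genes from 0.013 to 0.080, and 10 of the 17 lower changes shrank by over 1.5 times (LTBP2 -0.07 in place of -0.14, COL1A1 -0.22 in place of -0.28), with no called gene turned round. No paired analysis was possible because the treated groups share only replicate number 2 with 1 vehicle library. With 1 library per extract and dose, single doses were not tested.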
